A study of Mus musculus with 6 samples.

Results

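The miR-17-92 cluster is a polycistron, a single primary transcript from which several microRNAs (miRNAs) are cut. Its members were taken as every listed arm of the hairpins miR-17, miR-18a, miR-19a, miR-20a, miR-19b-1 and miR-92a-1, which gave 12 of the 778 miRNAs listed. Of these, 6 were taken as guides, the arms that are loaded to repress target mRNAs, and 6 are the other arms of the same hairpins. Loading itself was not measured. They were measured by small RNA sequencing of mouse primary mesangial cells, the contractile cells that hold the capillary loops of the kidney glomerulus together. All cells grew in high glucose (25.5 mM) with 20% fetal bovine serum and were used between passages 3 and 6. The Control group (3 libraries) carried the treatment label Control, and the TGF-b1 group (3 libraries) received TGF-β1, a cytokine that drives kidney fibrosis, at 10 ng/ml for 72 h. Genotype, strain, age and the number of animals behind the cells are not given in the sources used here. No label says that the libraries of a group came from separate cultures, so the p-values measure the spread between these libraries, which may be technical.

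The host transcript of the cluster is driven in many tissues by the proliferation factors Myc and E2F, and its guides are known for promoting cell division and survival. A guide finds its targets mainly through its seed, the bases 2 to 8 from its 5′ end, so guides with the same seed share most of their targets. In the TGF-β pathway, the miR-17 and miR-20a guides are known to repress the type II receptor, the miR-18a guide represses Smad2 and Smad4, and the miR-18 and miR-19 guides repress the matrix proteins CTGF and thrombospondin-1. The miR-92a guide is known to repress integrin α5. None of these targets was measured in the small RNA libraries.

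The 6 hairpins lie within 836 bp on the plus strand of chromosome 14, at 115442893 to 115443728 in the NCBIM37 mouse genome. In GENCODE vM1 each hairpin lies inside an exon of the noncoding host gene Mir17hg (115442101 to 115445949). Mature sequences from RefSeq (GRCm38.p6) were matched by name for 11 of the 12 members. The guides are printed in the order of the polycistron with the seed in capitals, because the seeds define the groups compared here, and the species prefix mmu is left out elsewhere.
mmu-miR-17-5p: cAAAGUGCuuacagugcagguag
mmu-miR-18a-5p: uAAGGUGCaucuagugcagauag
mmu-miR-19a-3p: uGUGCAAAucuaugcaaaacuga
mmu-miR-20a-5p: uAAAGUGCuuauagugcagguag
mmu-miR-19b-3p: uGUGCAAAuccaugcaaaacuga
mmu-miR-92a-3p: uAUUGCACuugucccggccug

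The guides thus form 4 seed groups, of which miR-17-5p and miR-20a-5p share the first, miR-18a-5p stands alone, miR-19a-3p and miR-19b-3p share the third, and miR-92a-3p stands alone. Positions were counted from 1 at the 5′ end. MiR-17-5p and miR-20a-5p differed at 2 of 23 positions (C1U and C12U), both outside the seed. MiR-19a-3p and miR-19b-3p differed at 1 of 23 positions (U11C). How reads that match more than 1 miRNA were counted is not given in the sources used here. Among rows with enough reads to be compared, 16 were identical to another row, and no member was among them. MiR-19a-5p, miR-20a-3p and miR-19b-1-5p, with 18, 9 and 4 reads in the 6 libraries together, were too rarely read to enter this comparison. The mature miR-19b-3p and miR-92a-3p are each encoded at 2 loci, the second being the paralogous miR-106a-363 cluster of chromosome X, so their reads cannot be assigned to chromosome 14 alone. Of the miRNAs made by that X-linked cluster alone that were looked up, only miR-363-3p was listed, with 1 read in the 6 libraries together. MiR-19b-2-5p, another arm made only there, was not looked up.

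Library totals ranged from 16478281 to 20169254 reads, and values are given as RPM, reads per 1000000 reads of that total. A count of 0 allows up to 3 reads, which were worth 0.149 to 0.182 RPM. Such limits cover counting error only. Of that total the listed miRNAs made up 79.5% to 79.8% in the Control libraries but 71.6% to 73.1% in those of TGF-b1, and the part of this difference in the changes described here was not tested. Among the marker lists, 5 of the 6 contractile and mesenchymal markers were listed and summed to 2587 to 2962 RPM in Control and 2609 to 3075 RPM in TGF-b1, and none of these 5 was at 0 in every library. The sum was mostly miR-143-3p, while miR-145-5p rose (log2 change 0.92, limma adjusted p = 0.00235). MiR-199a-5p (-0.95, limma adjusted p = 0.00785) and miR-199a-3p (-0.31, limma adjusted p = 0.0219) fell. MiR-143-3p and miR-214-3p did not pass (limma adjusted p = 0.945 and 0.507). The endothelial markers (2 of 4 listed) stayed at or below 0.298 RPM in sum and the blood markers (2 of 6 listed) at or below 0.360 RPM. The kidney epithelial list (7 of 7 listed) summed to 315.0 to 329.0 RPM in Control and 342.6 to 367.1 RPM in TGF-b1, most of it miR-192-5p. MiR-200c-3p and miR-141-3p had at most 2 reads in any library. MiR-200a-3p had 13.4, 11.99 and 12.7 RPM in Control and 1.34, 0.726 and 1.64 RPM in TGF-b1. MiR-200b-3p (log2 change -2.27, limma adjusted p = 6.05e-05) and miR-429-3p (-1.94, limma adjusted p = 4.17e-05) fell too. In contrast, miR-192-5p (0.23, limma adjusted p = 0.0396) and miR-194-5p (0.54, limma adjusted p = 0.0186) rose. The muscle list (3 of 4 listed) summed to 3440 to 3646 RPM in Control and 3285 to 3465 RPM in TGF-b1. This sum was nearly all miR-206-3p, while miR-133a-3p did not exceed 0.182 RPM. The liver marker miR-122-5p ranged from 24.2 to 27.3 RPM in Control and from 13.1 to 13.9 RPM in TGF-b1. The part of these other cell types in the results was not tested. In such bulk libraries fewer cells of a type and less RNA per cell cannot be told apart.

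The cluster was dominated by miR-92a-3p, which was above every other member in all 6 libraries. MiR-92a-3p had 749.2, 764.7 and 689.7 RPM in Control replicates 1 to 3 and 702.6, 514.6 and 591.9 RPM in TGF-b1 replicates 1 to 3. Its share of the summed RPM of the 6 guides was 91.9% ± 0.728 for Control against 90.1% ± 1.64 for TGF-b1 (SD, n = 3 each), and it ranked 42 among the 778 listed miRNAs in all Control libraries and 38 to 39 in the TGF-b1 libraries. Each mature miRNA is covered end to end by 1 read, so RPM needs no scaling by length, but the efficiency of cloning each sequence was not measured. On that read scale the guides from the same transcript spanned a wide range. The mean level in Control went from 734.5 RPM for miR-92a-3p to 28.3 for miR-17-5p, 16.6 for miR-19b-3p, 13.2 for miR-20a-5p, 6.24 for miR-18a-5p and 0.680 for miR-19a-3p. In this order the library ranges of miR-19b-3p and miR-20a-5p overlapped, and those of the other neighbouring guides did not. In TGF-b1, miR-20a-5p (15.2 RPM) and miR-19b-3p (13.8 RPM) changed places, and their ranges overlapped there too. MiR-19a-3p rested on 4 to 20 reads per library, against 209 to 297 reads for miR-19b-3p, which has the same seed. The guide share of miR-17-5p was the only guide share whose groups did not overlap, at 3.24% to 3.86% of the summed guides in Control and 4.21% to 5.59% in TGF-b1. As miR-92a-3p made up most of the guides, this share was close to a ratio of miR-17-5p to miR-92a-3p. Ratios of 2 miRNAs with enough reads to be tested did not overlap between the groups for 56.7% of all pairs. The RPM of miR-17-5p itself overlapped between the groups.

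**Figure D1:**
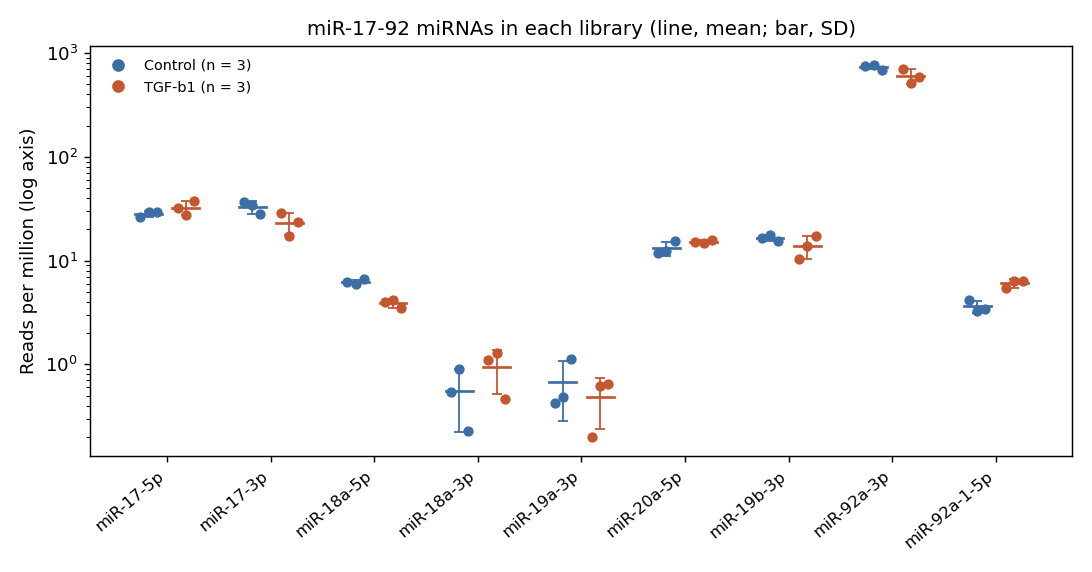
Level of the 9 tested miR-17-92 miRNAs in each library, in RPM on a log axis; points are libraries, lines are group means and bars are SD (n = 3 per group). MiR-92a-3p lies far above the other members in both groups, and the groups separate for miR-18a-5p, lower in TGF-b1, and miR-92a-1-5p, higher in TGF-b1.

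After TGF-β1, 2 of the 6 guides had log2 changes above 0 and 4 had changes below 0, of which 2 turned to above 0 with upper-quartile scaling. Of the 12 members, 9 passed the filter on low reads, including all 6 guides. By limma on log2(RPM + 1), 1 of the 9 was lower (miR-18a-5p) and 1 was higher (miR-92a-1-5p) at a Benjamini-Hochberg adjusted p under 0.05 over all 408 tested miRNAs. Among all tested miRNAs 31.9% were lower and 17.4% were higher by this rule, and 49.3% passed in either direction. With an absolute log2 change above 1 as well, which 12.3% of all tested miRNAs passed, 0 of the 9 members passed by limma, and 0 passed with edgeR or DESeq2, while 4 of the 9 had an unadjusted limma p under 0.05, against 55.9% of all tested miRNAs. Groups of libraries did not overlap for 2 of the 9 members, against 56.9% of all tested miRNAs. The median log2 change of the 6 guides was -0.22, beside -0.17 over all tested miRNAs. That common shift depended on the scaling of the libraries. The median of all tested miRNAs was -0.08 when scaled to the sum of the listed miRNAs, -0.03 after TMM, -0.03 after median-of-ratios and 0.07 after upper-quartile scaling. Under these 4 scalings the median of the 6 guides was -0.13, -0.08, -0.08 and 0.02.

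MiR-18a-5p, the only guide of the cluster with its seed, fell. It had 6.19, 5.93 and 6.58 RPM in Control and 4.02, 4.19 and 3.45 RPM in TGF-b1, from 59 to 116 reads per library. Every TGF-b1 library was below every Control library, and the TGF-b1 mean was 62.3% of the Control mean. The log2 change was -0.57 ± 0.13 (SE, limma adjusted p = 0.00892). The call was lost with TMM (-0.39, limma adjusted p = 0.0588), median of ratios (-0.40, 0.0749) and upper quartile (-0.31, 0.236), and with DESeq2 (-0.47, adjusted p = 0.201), while edgeR with TMM gave -0.53 and an adjusted p of 0.0447. Adjusted p-values over its 18 alternatives ranged from 0.00852 to 0.236. The other arm, miR-18a-3p, had 4 to 15 reads per library in Control and 8 to 23 in TGF-b1, and its log2 change of 0.32 ± 0.22 did not pass (SE, limma adjusted p = 0.262).

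The guides with the seed AAAGUGC, miR-17-5p and miR-20a-5p, lay on the other side of 0 from miR-18a-5p, and neither passed the test. MiR-17-5p had 26.3, 29.4 and 29.2 RPM in Control and 32.2, 27.4 and 37.3 RPM in TGF-b1. TGF-b1 replicates 1 and 3 were above all Control libraries and replicate 2 lay within them. Its log2 change was 0.18 (95% interval -0.16 to 0.51, limma adjusted p = 0.342), from 0.07 without TGF-b1 replicate 3 to 0.28 without TGF-b1 replicate 2. MiR-20a-5p had 11.8, 12.2 and 15.5 RPM in Control and 15.0, 14.7 and 15.9 RPM in TGF-b1, and Control replicate 3 lay among the TGF-b1 libraries. Its log2 change was 0.20 (95% interval -0.13 to 0.53, limma adjusted p = 0.283), and 0.13 to 0.32 with single libraries left out. With median-of-ratios scaling miR-17-5p passed, at 0.38 and a limma adjusted p of 0.0452. Summed, the 2 guides went from 41.5 ± 3.36 to 47.5 ± 5.56 RPM (mean ± SD of 3 libraries; exact two-sided permutation p = 0.2, adjusted to 0.25 over 5 sums), and the difference of 6.02 RPM moved between 3.17 and 8.73 RPM with single libraries left out.

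The guides with the seed GUGCAAA were led by miR-19b-3p. MiR-19b-3p had 16.6, 17.7 and 15.4 RPM in Control and 10.4, 13.7 and 17.4 RPM in TGF-b1, with TGF-b1 replicate 1 the lowest and replicate 3 within the Control range. Its log2 change was -0.27 (95% interval -0.70 to 0.17, limma adjusted p = 0.273). It was -0.09 without TGF-b1 replicate 1, -0.44 without TGF-b1 replicate 3 and 0.03 with upper-quartile scaling. MiR-19a-3p had 0.425, 0.480 and 1.13 RPM in Control and 0.198, 0.614 and 0.644 RPM in TGF-b1, and the groups overlapped. At 4 to 20 reads per library no difference was detectable for it (log2 change -0.17, 95% interval -0.63 to 0.29, limma adjusted p = 0.530). At this level the added 1 RPM sets much of the change, which was -0.42 with 0.1 RPM added and -0.03 with 10. The interval thus holds for log2(RPM + 1) and not for the ratio of the levels. The log2 change of miR-92a-3p was -0.29 ± 0.12 (SE; 95% interval -0.57 to -0.02), with a limma adjusted p of 0.0733 and an unadjusted p of 0.0392. TGF-b1 replicate 1, at 702.6 RPM, lay inside the Control range and the other 2 TGF-b1 libraries lay below it. Without TGF-b1 replicate 1 the change was -0.41 with a limma adjusted p of 0.0104, and without TGF-b1 replicate 2 it was -0.19 with an adjusted p of 0.235. With upper-quartile scaling the change was 0.02 with an adjusted p of 0.947.

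**Figure D2:**
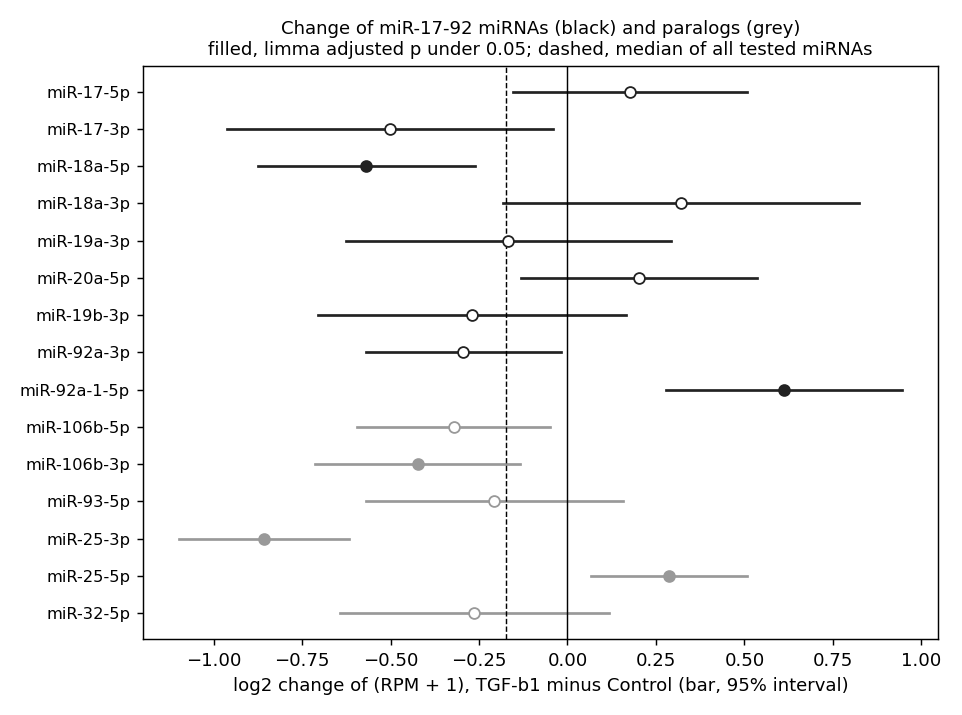
Log2 change of RPM + 1, TGF-b1 minus Control, for the tested miR-17-92 miRNAs (black) and same-seed or paralogous miRNAs (grey), with 95% intervals from limma; filled points have an adjusted p under 0.05 and the dashed line is the median of all tested miRNAs. Of the cluster, miR-18a-5p (-0.57) and miR-92a-1-5p (0.61) are filled, and with upper-quartile scaling miR-92a-3p and miR-19b-3p would lie just above 0.

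Ratios between seed groups were taken within each library, which removes the library total except through the 1 RPM added to each side. Of the 6 pairs of seed groups, 3 had groups that did not overlap, and all 3 involved miR-17-5p and miR-20a-5p. For comparison, the ratio of 2 tested miRNAs did not overlap between the groups for 56.7% of all pairs. On the log2(RPM + 1) scale the ratio of the summed miR-17-5p and miR-20a-5p to miR-18a-5p was 2.44, 2.62 and 2.59 in Control and 3.26, 3.05 and 3.61 in TGF-b1, a difference of 0.76. That difference was 0.86 with 0.1 RPM added in place of 1, and 0.38 with 10. Against the miR-19 guides the difference was 0.47, and against miR-92a-3p it was 0.48. In each of these 3 pairs all TGF-b1 libraries were above all Control libraries. Without miR-19b-3p, which is encoded at 2 loci, the second difference was 0.36 (exact two-sided permutation p = 0.3) and the groups overlapped, and without TGF-b1 replicate 1 it was 0.28. The exact two-sided permutation p was 0.1 for each, the smallest that 3 against 3 libraries can give, and 0.2 after Benjamini-Hochberg adjustment over the 6 pairs, so none of the pairs can be called. The differences were -0.29 for miR-18a-5p over the miR-19 guides (exact permutation p = 0.5), -0.27 for miR-18a-5p over miR-92a-3p (exact permutation p = 0.3) and 0.01 for the miR-19 guides over miR-92a-3p (exact permutation p = 1).

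**Figure D3:**
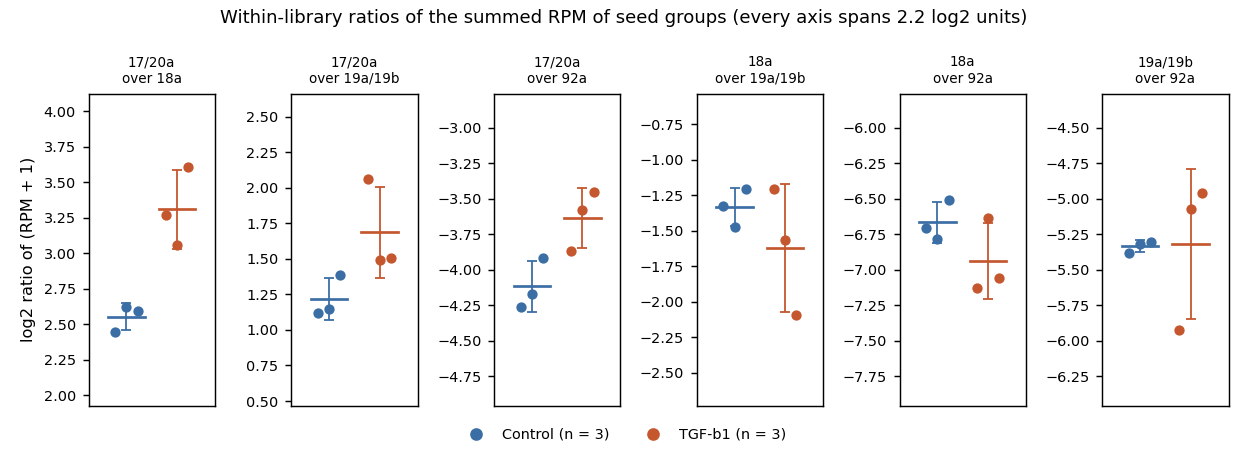
Within-library log2 ratios of the summed RPM + 1 of the 4 seed groups, 1 panel per pair, with points for libraries, lines for means and bars for SD (n = 3 per group); panels have different offsets but the same span. In the 3 panels on the left, those with miR-17-5p and miR-20a-5p as the first group, the TGF-b1 points lie above all Control points.

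MiR-92a-1-5p, the other arm of the hairpin that gives miR-92a-3p, rose. It and miR-17-3p are printed because they are the non-guide arms with enough reads to set against their guides, and their seeds differ from those of all 6 guides.
mmu-miR-92a-1-5p: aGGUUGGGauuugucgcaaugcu
mmu-miR-17-3p: aCUGCAGUgagggcacuuguag
MiR-92a-1-5p had 4.19, 3.24 and 3.40 RPM in Control and 5.40, 6.31 and 6.38 RPM in TGF-b1, from 54 to 113 reads per library. All TGF-b1 libraries were above all Control libraries, and the TGF-b1 mean was 167.1% of the Control mean. The log2 change was 0.61 ± 0.14 (SE, limma adjusted p = 0.00932), and its adjusted p stayed between 0.00246 and 0.0400 in all 18 alternatives. MiR-92a-1-5p carries the number of the chromosome 14 locus and differs from the arm of the chromosome X copy, whereas miR-92a-3p is shared by both.

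MiR-17-3p, the other arm of miR-17, lay in a range that overlapped that of its guide in both groups. In Control its mean of 32.9 RPM was above the 28.3 RPM of miR-17-5p, so read level there does not mark miR-17-5p as the guide. The medians and shares of the 6 guides leave miR-17-3p out. MiR-17-3p had 36.3, 34.5 and 27.8 RPM in Control and 28.8, 17.3 and 23.7 RPM in TGF-b1. Its groups overlapped by TGF-b1 replicate 1 alone, which lay above Control replicate 3. The log2 change was -0.50 (95% interval -0.96 to -0.04, limma adjusted p = 0.0689). It passed without TGF-b1 replicate 1 (-0.66, limma adjusted p = 0.0204) and without Control replicate 3 (-0.61, limma adjusted p = 0.0447). Without TGF-b1 replicate 2 it was -0.31 (limma adjusted p = 0.211), and without any of the other 3 libraries it did not pass either (limma adjusted p from 0.104 to 0.191). Levels of miR-17-3p and miR-92a-3p followed each other over the 6 libraries (Pearson r = 0.98 on log2(RPM + 1), a description over libraries that share their groups). This was the highest r of all pairs of tested members, and the lowest was -0.92, for miR-18a-5p and miR-92a-1-5p. Between the guides r ranged from -0.69 (miR-17-5p and miR-18a-5p) to 0.66 (miR-18a-5p and miR-92a-3p).

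The remaining arms were near the limit of detection. MiR-19a-5p had 0 to 10 reads per library, miR-20a-3p 0 to 4 and miR-19b-1-5p 0 to 2, and none of the 3 was tested.

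In miR-17 the order of the arms differed between libraries. The 5p arm was below the 3p arm in Control replicates 1 and 2 and above it in Control replicate 3 and in all TGF-b1 libraries. The log2 ratio of the 5p to the 3p arm was -0.45, -0.23 and 0.07 in Control and 0.16, 0.63 and 0.63 in TGF-b1, a difference of 0.68. In miR-92a-1 the 5p arm stayed far below the 3p arm, with log2 ratios of -7.18, -7.50 and -7.29 in Control and -6.78, -6.14 and -6.33 in TGF-b1, a difference of 0.91. Ratios for miR-18a differed by -0.89 and for miR-20a by 0.28, each with groups that did not overlap, but the 3p arms were at 4 to 23 and 0 to 4 reads per library. The pseudocount sets much of a ratio at such counts. Ratios for miR-19a and miR-19b-1 overlapped between the groups. By the exact two-sided permutation test the 4 ratios that did not overlap gave p = 0.1, the lowest value these 6 libraries allow, and 0.15 when adjusted over the 6 hairpins. Arm ratios did not overlap for 42.4% of the 85 hairpins whose 5p and 3p arms each averaged 1 RPM or more. Of the 4 ratios above, those of miR-17 and miR-92a-1 can be set beside this share. MiR-18a and miR-20a are not among the 85, since their 3p arms averaged less than 1 RPM.

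A limma fit over the arm ratios of those 85 hairpins, added after the values were seen, called 27.1% of them. In this fit the miR-92a-1 ratio had a difference of 0.91 ± 0.23 (SE, limma adjusted p = 0.0122) and passed with a pseudocount of 0.1 as well (1.02, limma adjusted p = 0.0238). The miR-17 ratio had a difference of 0.68 ± 0.23 (SE, limma adjusted p = 0.0454) and did not pass with a pseudocount of 0.1 (0.70, limma adjusted p = 0.0874). In miR-25, the hairpin of the paralogous cluster with the same 3p seed as miR-92a, the same ratio had a difference of 1.15 ± 0.22 (SE, limma adjusted p = 0.00495), while in miR-106b, of the same cluster, it was 0.10 ± 0.22 (SE, limma adjusted p = 0.774).

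**Figure D4:**
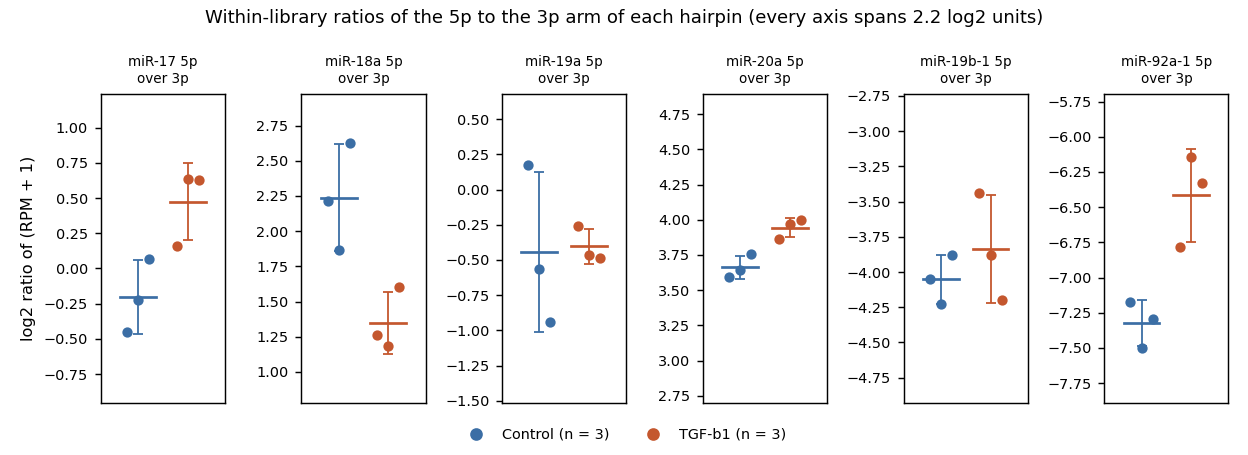
Within-library log2 ratios of the 5p to the 3p arm (RPM + 1) of the 6 hairpins, with points for libraries, lines for means and bars for SD (n = 3 per group); panels have different offsets but the same span. TGF-b1 points lie above all Control points for miR-17, miR-20a and miR-92a-1 and below them for miR-18a.

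The miR-106b-25 cluster, which lies within the gene Mcm7 on chromosome 5, carries paralogs with the seeds of miR-17 and miR-92a. Its guides are printed, with miR-92b-3p, which lies outside that cluster, to show which bases these miRNAs share with the chromosome 14 guides.
mmu-miR-106b-5p: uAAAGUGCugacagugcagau
mmu-miR-93-5p: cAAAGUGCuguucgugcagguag
mmu-miR-25-3p: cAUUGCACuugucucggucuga
mmu-miR-92b-3p: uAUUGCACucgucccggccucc
MiR-25-3p differed from miR-92a-3p at 3 of 21 positions (U1C, C14U and C18U), all outside the seed. It had 1467, 1304 and 1395 RPM in Control and 881.5, 732.2 and 692.1 RPM in TGF-b1, and it fell by 0.86 ± 0.10 on the log2 scale (SE, limma adjusted p = 0.000522). The log2 ratio of miR-92a-3p to miR-25-3p was -0.97, -0.77 and -1.01 in Control and -0.33, -0.51 and -0.23 in TGF-b1, a difference of 0.56. The ratio of the 6 guides to miR-106b-5p, miR-93-5p and miR-25-3p differed by 0.43. Leaving miR-19b-3p and miR-92a-3p out of the guides gave 0.80, but miR-25-3p, with the seed of miR-92a-3p, was kept on the other side. The ratio of miR-17-5p and miR-20a-5p to miR-106b-5p and miR-93-5p differed by 0.41. With no guide left out, all 3 ratios were higher in every TGF-b1 library than in any Control library. For comparison, 56.7% of all ratios of 2 tested miRNAs did not overlap between the groups. The 3 ratios share miRNAs, and that of the 6 guides rests mostly on miR-92a-3p and miR-25-3p, the most abundant guides of their clusters. Each of the 3 gave the lowest exact two-sided permutation p of this design, 0.1, before and after adjustment over the 3. MiR-106b-5p and miR-93-5p had log2 changes of -0.32 and -0.21 that did not pass (limma adjusted p = 0.0517 and 0.310). Of the other arms of that cluster, miR-106b-3p fell (-0.42, limma adjusted p = 0.0234). MiR-25-5p, the arm opposite miR-25-3p, rose (0.29, limma adjusted p = 0.0370), and miR-93-3p was not tested. Among all tested miRNAs 31.9% were lower and 17.4% higher.

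Seen by seed, the cluster supplied a minor part of the AAAGUGC miRNAs and a larger part of the AUUGCAC miRNAs. Of 7 mature mouse miRNAs in RefSeq with the seed AAAGUGC 4 were listed, and miR-17-5p and miR-20a-5p made up 9.20% to 12.4% of their RPM in Control and 12.8% to 14.0% in TGF-b1. MiR-93-5p, at 306.9 RPM in Control, was the most abundant of the 4. Of 6 with the seed AUUGCAC 5 were listed, and miR-92a-3p made up 32.7% to 36.5% of their RPM in Control and 40.8% to 45.6% in TGF-b1. The whole AUUGCAC group went from 2148 ± 83.0 to 1386 ± 186.6 RPM in sum (mean ± SD of 3 libraries). Of its 3 tested miRNAs outside the cluster 2 were lower, miR-25-3p and miR-92b-3p, beside 31.9% of all tested miRNAs. MiR-92b-3p, named for its seed after its values were seen, had 23.2, 22.1 and 19.3 RPM in Control and 14.1, 10.7 and 10.7 RPM in TGF-b1, and it fell by 0.82 ± 0.15 on the log2 scale (SE, limma adjusted p = 0.00358). MiR-32-5p, the other one, had a log2 change of -0.26 that did not pass (limma adjusted p = 0.226). The seeds of miR-18a and the miR-19 guides had no listed miRNA outside the cluster.

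The library-to-library pattern of the guides, taken as the mean log2(RPM + 1) of the 6, was 4.25, 4.30 and 4.41 in Control and 4.10, 4.13 and 4.27 in TGF-b1. The tested miRNAs outside the cluster with the most similar pattern over the 6 libraries were miR-34a-5p (Pearson r = 0.90), miR-669d-5p (r = 0.87) and miR-672-5p (r = 0.87). None of the 3 passed the test between the groups, with limma adjusted p-values from 0.0845 to 0.413. Control replicate 3 and TGF-b1 replicate 3 were the highest library of their group for both this mean of the guides and miR-34a-5p. The mean gives each guide the same weight, and single guides did not all follow it. The summed RPM of the 6 guides was instead lowest of the Control libraries in replicate 3 (757.6). Of the TGF-b1 libraries it was highest in replicate 1 (764.3).

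The size of each change depended on the scaling. From library totals to upper-quartile scaling the log2 change of miR-17-5p went from 0.18 to 0.48 and that of miR-20a-5p from 0.20 to 0.49, while that of miR-18a-5p went from -0.57 to -0.31. Of the 9 tested members, miR-92a-1-5p had the highest log2 change and miR-18a-5p the lowest under all 5 scalings with a pseudocount of 1 and all libraries. MiR-17-3p was the lowest with a pseudocount of 10. It was also the lowest when Control replicate 3, TGF-b1 replicate 1 or TGF-b1 replicate 3 was left out. With edgeR and DESeq2 the rarely read miR-18a-3p was the highest.

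**Figure D5:**
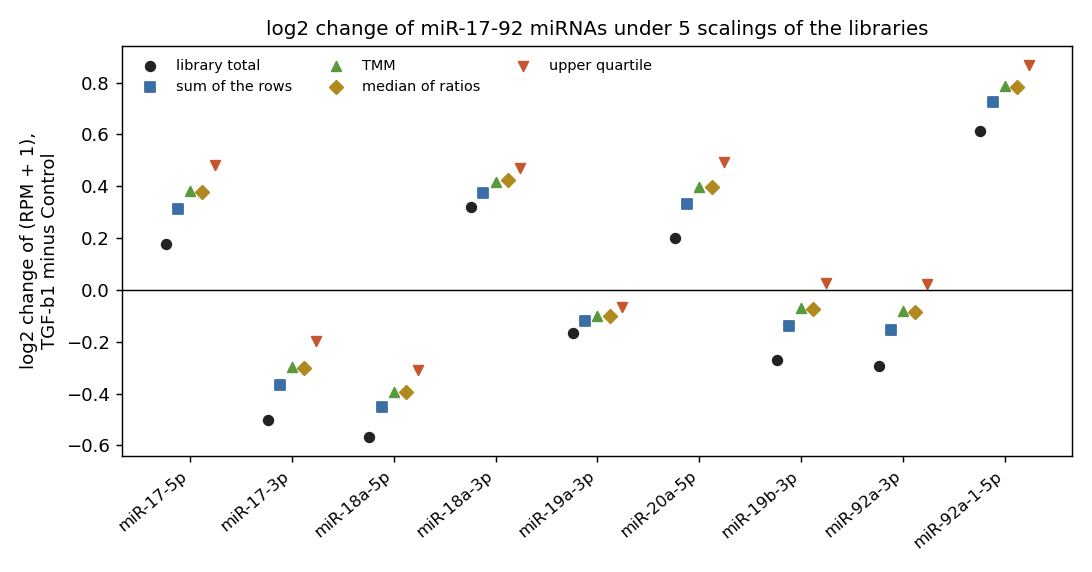
Log2 change of RPM + 1, TGF-b1 minus Control, of the 9 tested miR-17-92 miRNAs under 5 scalings of the libraries, 1 marker per scaling. MiR-92a-1-5p is the highest and miR-18a-5p the lowest under each, and miR-19b-3p and miR-92a-3p move from -0.27 and -0.29 on library totals to 0.03 and 0.02 with upper-quartile scaling.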

How the data were processed

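The authors filtered and trimmed the small RNA reads and assigned them to annotated miRNAs with Bowtie. The authors deposited 1 table with 6 libraries. The authors named its unit TPM, but the deposited values are RPM, made by dividing read counts by the library total with no scaling by length. Whole reads and library totals were recovered from the values (100% whole within a tolerance of 0.002).

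The planned test for normalized values was a limma fit (version 3.58.1, R 4.3.3) of log2(RPM + 1) on group, with a trend in the prior variance, over the 408 miRNAs kept by filterByExpr of edgeR 4.0.16 (minimum count 10). Benjamini-Hochberg adjustment ran over all 408. Sums and ratios were compared by the exact permutation test (two-sided, scipy 1.17.1), where 3 against 3 libraries cannot go below 0.1. Alternatives were 4 other scalings, pseudocounts of 0.1 and 10, 2 other filters, edgeR and DESeq2 1.42.0 on the recovered reads, a replicate block, and each library left out. The fits were also run on simulated reads, with calls scored only above an absolute log2 change of 1. The called members changed by less, so that run says nothing about calls of their size.

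The miRNAs named are all members, their paralogs and same-seed miRNAs, the 3 with the most similar pattern, and cell type markers. Members and lists were chosen with earlier results of these data known. Hairpin positions came from GENCODE vM1 and mature positions from exact matches in the NCBIM37 genome. A planned ratio to the miR-106a-363 cluster was not computed, since only miR-363-3p was listed, with 1 read.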

Additional observations from a re-analysis of the deposited data

How the results depend on the processing

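Against 1 lower member, limma gave 0 after TMM, 0 after median-of-ratios and 0 after upper-quartile scaling, and DESeq2 gave 0. Of all tested miRNAs 23%, 22.5%, 17.9% and 17.6% were lower in these settings. At an unadjusted p under 0.05, 1, 1, 0 and 0 members were lower, where 20.8% to 26.5% of all tested miRNAs were. EdgeR gave 1 lower member with TMM and 1 with library totals, the latter chosen after seeing the data. In these fits 24.8% and 30.6% of all tested miRNAs were lower. Against 1 higher member, median of ratios gave 2, where 22.8% of all tested miRNAs were higher. Leaving out each library gave 1 to 3 lower and 1 to 1 higher members, with 3 lower without TGF-b1 replicate 1 and 2 without Control replicate 3, where 33.4% and 30.9% of all tested miRNAs were lower. The median log2 change of the 6 guides was -0.22, against 0.024 with upper quartile and -0.059 with DESeq2. It was -0.29 with a pseudocount of 0.1 and -0.096 with 10. Leaving out each library gave -0.27 to -0.056, the last without TGF-b1 replicate 1. With upper quartile the log2 changes of miR-19b-3p and miR-92a-3p reversed to 0.027 and 0.021, and leaving out single libraries moved that of miR-19a-3p between -0.27 and 0.018, positive without Control replicate 3. Among ratios, the miR-19 guides over miR-92a-3p went from 0.013 to -0.0045 with a pseudocount of 0.1 and ranged from -0.17 to 0.32 over the libraries left out. MiR-18a-5p over miR-92a-3p went from -0.27 to 0.065 with a pseudocount of 10, the arm ratio of miR-19b-1 went from 0.21 to -0.11 with a pseudocount of 0.1, and that of miR-19a ranged from -0.21 to 0.35 over the libraries left out. The limma fit over all hairpins, chosen after seeing the data, newly called miR-17 (0.68) and miR-92a-1 (0.91, and 1.02 with a pseudocount of 0.1). The cause of these differences was not tested.

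Same-numbered libraries showed no shared deviation, since their deviations from the group means correlated at -0.08, -0.21 and -0.34. No label says whether they were paired, and so few libraries cannot settle it. With the replicate block 1 member was higher and 1 lower, where 15% and 28.2% of all tested miRNAs were, and the median of the guides was -0.22. Planned ratios without miR-19b-3p and miR-92a-3p, which are encoded at 2 loci, could not be computed for miR-92a-3p itself. Without both, the difference in the ratio of miR-17-5p and miR-20a-5p to miR-19a-3p alone was 0.36, and that of miR-18a-5p to it -0.40. The difference in the ratio of the remaining guides to the miR-106b-25 guides, with miR-25-3p kept among the latter, was 0.80. Depth limited miR-19a-3p, miR-18a-3p and the 3 untested arms, at 0 to 23 reads per library.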
